A study of Rattus norvegicus with 18 samples.

Results

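Expression of 7 genes of scarring and extracellular matrix was followed in intestine from 18 libraries of Sprague-Dawley rats (an outbred stock): the fibrillar collagen genes Col1a1, Col1a2 and Col3a1, the fibronectin gene Fn1, the growth factor gene Tgfb1, the protease inhibitor gene Timp1 and the vimentin gene Vim. They were taken from the deposited table by Ensembl ID as a named set of fibrosis and matrix genes. Each ID lay on the chromosome given for it, so 7 of 7 were kept, among 30562 genes. All 7 were also among the 16593 genes with enough counts to be tested.

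RNA was measured by bulk sequencing in 3 groups of 6 libraries. One group was given 10 Gy of X-rays in a single dose together with Changbing Formula, whose composition the labels do not give (irradiated plus formula). Another was given the same dose alone (irradiated), and the control rats had no treatment. All rats were labelled wild type and as a single batch, and groups were taken from the titles because the free-text descriptions call all 18 tissues untreated. The labels used here give the tissue only as intestine, with no segment, sex, age, time after irradiation or amount of formula.

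Scar formation in irradiated bowel is known as a late complication of radiotherapy, in which fibroblasts and myofibroblasts deposit collagen in the wall. TGF-beta 1, the product of Tgfb1, is secreted in latent form and, once released, signals through its receptors and Smad proteins to raise transcription of collagen, fibronectin and protease inhibitor genes in fibroblasts. The inhibitor made from Timp1 blocks matrix metalloproteinases, which degrade matrix. Vimentin, an intermediate filament protein, is found in mesenchymal cells and in leukocytes.

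No gene of the set passed edgeR's quasi-likelihood test (Benjamini-Hochberg adjusted p below 0.05) in any comparison: 0 of 7 between irradiated and control, 0 of 7 between irradiated plus formula and irradiated, and 0 of 7 between irradiated plus formula and control. Among the 16593 genes tested, 0%, 0% and 0.0121% passed in these comparisons. Levels varied widely between libraries within each group, and the collagen genes and Fn1 varied together. Library totals lay between 33598572 and 48398184 counts. Over all genes, control 2 and irradiated 4 stood apart on the first principal component, at 176 and 216 against -52.9 to 34.2 in the other 16 libraries, and both were also unlike the rest in the genes described here. Values without them are given where they differ by much. Markers of cell types could not be examined, since the table pairs no other ID with a symbol, and in bulk tissue fewer cells of a type and less RNA per cell cannot be told apart.

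Levels were compared between genes per length, as TPM (counts per kilobase of exon, scaled to the same sum in each library). Col3a1, the chain of type III collagen, had 227 ± 99.2 TPM (SD, n = 18) and ranked 418th of 30562 genes by mean TPM. Vim followed with 176 ± 89.5 TPM and was below Col3a1 in 15 of 18 libraries. The exceptions were control 2, irradiated 4 and irradiated 6. Timp1 at 102 ± 101 TPM, Fn1 at 101 ± 61.6 TPM and Col1a2 at 93.4 ± 42.8 TPM could not be ordered: Timp1 was above Fn1 in 7 of 18 libraries and Fn1 above Col1a2 in 9. Col1a2 was above Col1a1, at 64.7 ± 33.1 TPM, in 18 of 18 libraries. Tgfb1, the only signalling molecule of the set, had 30.8 ± 41.4 TPM, ranked 3706th, and was below Col1a1 in 16 of 18 libraries, the exceptions being control 2 and irradiated 4. Without these libraries Tgfb1 averaged 18.2 ± 11.9 TPM and ranked 5395th, and Col3a1 averaged 246 ± 87.3 TPM and ranked 369th (SD, n = 16).

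Positions are those of the deposited table, on mRatBN7.2. Col1a1 (ENSRNOG00000003897) spans chr10:79883622-79900624, forward strand, with 5825 exon bases in 51 merged exon blocks. Col1a2 (ENSRNOG00000011292) spans chr4:32563381-32598867, forward strand, with 4687 exon bases in 53 blocks. Col3a1 (ENSRNOG00000003357, chr9:47374593-47410547, forward strand, 4787 exon bases) and Fn1 (ENSRNOG00000014288, chr9:73196044-73264678, reverse strand, 8332 exon bases) are the only pair that shares a chromosome. Tgfb1 (ENSRNOG00000020652) spans chr1:81196532-81212847 and Vim (ENSRNOG00000018087) spans chr17:76668647-76677187, both on the forward strand. Timp1 (ENSRNOG00000010208, chrX:1212972-1217664, reverse strand) overlaps the span of ENSRNOG00000010365 but none of its exons. Of the 7 genes only Fn1 shares exon bases with another annotated gene, 44 of them, with ENSRNOG00000037894 on the opposite strand. The counts were made without strand, so reads there cannot be assigned to either.

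RefSeq promoter sequence, on the GRCr8 build and from 250 bases before to 50 bases after the annotated start, was at hand for 4 of the 7 genes. All windows at hand are shown, and no relation of their sequence to the levels was tested. Capitals mark matches, on either strand, to the TATA box (searched as TATAAA), the CCAAT box (searched as CCAAT), the GC box (searched as GGGCGG), the AP-1 site (searched as TGANTCA) or a Smad box (searched as CAGAC). The windows are chr4:33518307-33518606 on the forward strand for Col1a2, chr1:90324062-90324361 on the forward strand for Tgfb1, chr17:81577011-81577310 on the forward strand for Vim and chrX:3771073-3771372 on the reverse strand for Timp1, each printed along its gene.
Col1a2: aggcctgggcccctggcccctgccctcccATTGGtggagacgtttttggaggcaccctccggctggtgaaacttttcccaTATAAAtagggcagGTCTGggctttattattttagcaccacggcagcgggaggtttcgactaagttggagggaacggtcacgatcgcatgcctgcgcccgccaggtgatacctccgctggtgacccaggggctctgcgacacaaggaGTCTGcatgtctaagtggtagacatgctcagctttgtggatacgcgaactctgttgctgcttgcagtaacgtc
Tgfb1: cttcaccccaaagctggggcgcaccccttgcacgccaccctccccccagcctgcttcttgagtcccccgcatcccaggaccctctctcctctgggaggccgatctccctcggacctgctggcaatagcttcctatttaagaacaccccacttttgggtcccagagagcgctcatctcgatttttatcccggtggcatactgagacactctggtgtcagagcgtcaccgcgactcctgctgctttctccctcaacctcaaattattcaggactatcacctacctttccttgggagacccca
Vim: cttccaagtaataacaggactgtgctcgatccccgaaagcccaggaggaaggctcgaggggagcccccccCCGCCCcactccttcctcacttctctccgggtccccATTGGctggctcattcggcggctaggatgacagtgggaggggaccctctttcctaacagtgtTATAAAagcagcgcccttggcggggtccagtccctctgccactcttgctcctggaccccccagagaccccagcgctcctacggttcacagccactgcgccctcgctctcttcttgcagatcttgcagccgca
Timp1: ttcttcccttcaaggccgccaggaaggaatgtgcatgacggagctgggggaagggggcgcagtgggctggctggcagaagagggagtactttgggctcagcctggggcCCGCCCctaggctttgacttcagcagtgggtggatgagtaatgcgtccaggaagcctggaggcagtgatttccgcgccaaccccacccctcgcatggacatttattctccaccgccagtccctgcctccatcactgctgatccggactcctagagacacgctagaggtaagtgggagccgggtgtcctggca

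The Col1a2 and Vim windows each hold a TATAAA match, found in 14.2% of 33469 RefSeq promoters of this length, and a CCAAT match, found in 37.5%. The TATAAA match begins at position -170 in Col1a2 and -82 in Vim, counted from the annotated start. Col1a2 also has 2 CAGAC matches, a motif present in 50.1% of promoters, and the other 3 windows have 0. GGGCGG occurs in Vim and Timp1 and in 33.1% of promoters. No window holds TGANTCA, which 7.33% of promoters do, and Tgfb1 has none of the 5 motifs. No 2 matches overlap. A match is a string of letters and does not show that a factor binds.

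The collagen genes were examined first. Type I collagen, the bulk of scar collagen, is built from alpha-1 chains (Col1a1) and an alpha-2 chain (Col1a2), and type III collagen from Col3a1 alone. Values are CPM (each count over the library total scaled by edgeR's TMM factor), which compare a gene's level between libraries. Col1a1 lay between 126 and 393 CPM with a median of 185 in irradiated plus formula libraries, between 66.6 and 357 with a median of 167 in irradiated libraries, and between 36.1 and 302 with a median of 218 in control libraries. Col3a1 lay between 435 and 1161 CPM (median 582) in irradiated plus formula, between 185 and 791 (median 458) in irradiated, and between 91.4 and 909 (median 673) in control libraries. The 3 ranges overlapped for both genes. The lowest irradiated library was number 4 and the lowest control library number 2. Col1a2 lay between 172 and 468 CPM (median 196) in irradiated plus formula, between 79.7 and 326 (median 215) in irradiated and between 46.2 and 364 (median 265) in control libraries, with the same libraries lowest.

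**Figure D1:**
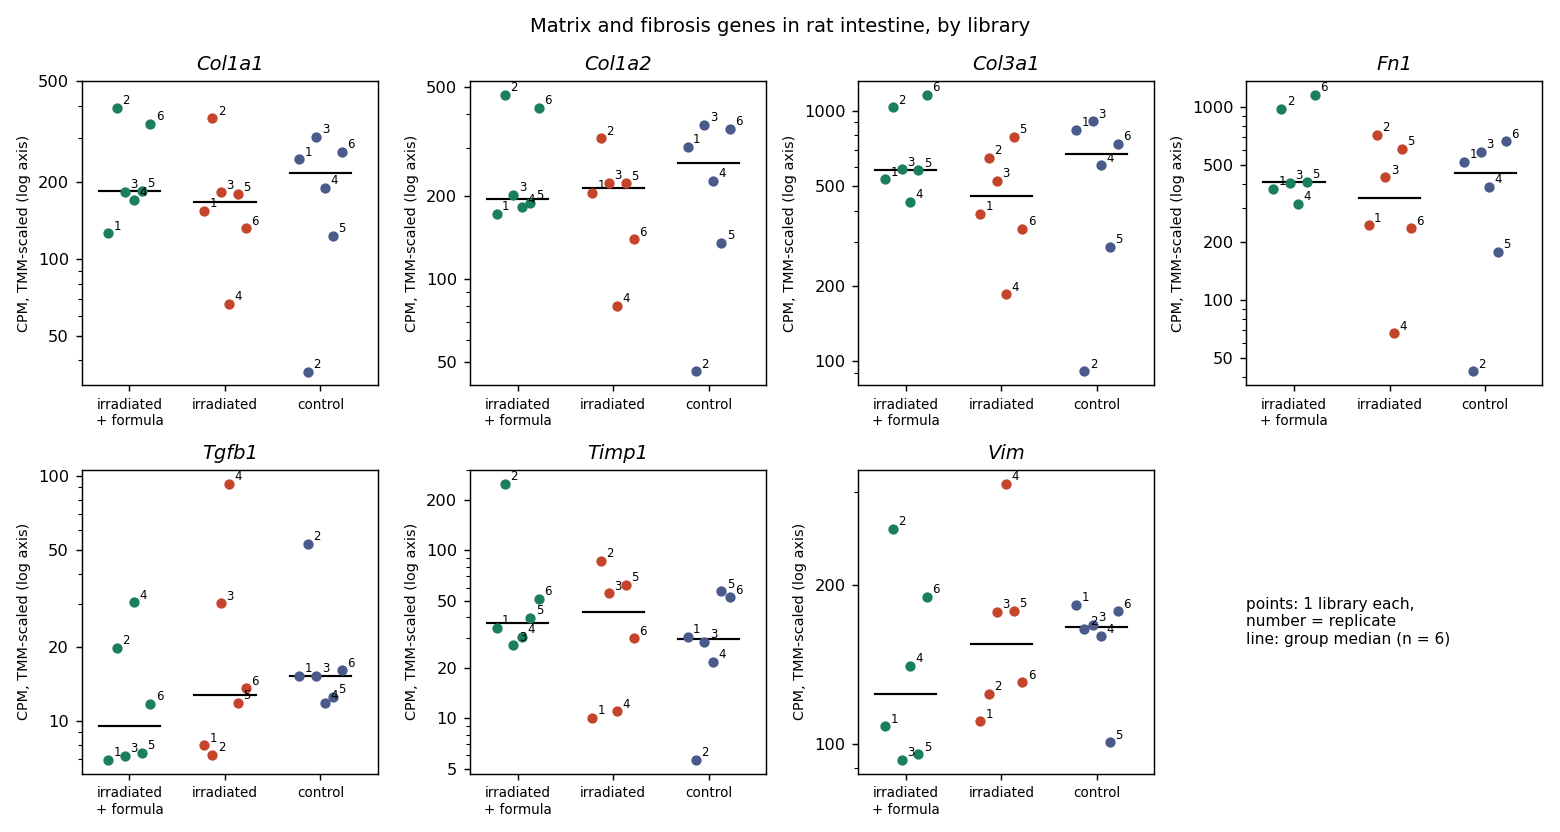
Level of each of the 7 genes in every library, as TMM-scaled CPM on a log axis, for irradiated plus formula, irradiated and control rats (points are libraries with their replicate number, lines are medians of 6). The groups overlap for every gene, control 2 and irradiated 4 are the lowest libraries for Col1a1, Col1a2, Col3a1 and Fn1 and the highest for Tgfb1, and Timp1 reaches 251 CPM in irradiated plus formula 2.

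Irradiation alone was examined by setting irradiated against control libraries. At an unadjusted edgeR p below 0.05 there were 0 of 7 genes, against 1.93% of genes, and DESeq2 and limma-voom also called 0 of 7. The share over all genes depended on control 2. It was 321 of 16593 genes with 18 libraries and 2130 of 16738 without control 2. Of the 7 genes, 0 had such a p in either fit. The fitted log2 fold changes were negative for the collagens, at -0.12 (SE 0.44) for Col1a1, -0.25 (SE 0.43) for Col1a2 and -0.27 (SE 0.45) for Col3a1. Fn1, whose product links collagen fibres to cells, was at -0.04 (SE 0.58). Tgfb1 was at 0.40 (SE 0.62), Timp1 at 0.38 (SE 0.66) and Vim at 0.11 (SE 0.28), and the edgeR adjusted p was 0.998 for all 7. The median over the 7 genes was -0.04, beside 0.01 over all genes tested. Under limma-voom with quality weights the collagens were at -0.46 for Col1a1, -0.56 for Col1a2 and -0.56 for Col3a1. The adjusted p of that test lay between 0.503 and 0.600 for these genes. Without the weights limma-voom gave -0.0031, -0.087 and -0.053.

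The effect of the formula was examined by setting irradiated plus formula against irradiated libraries. Here 0 of 7 genes had an unadjusted edgeR p below 0.05, against 5.59% of genes. DESeq2 and limma-voom called 0 of 7 here too. The fitted values were positive for 5 genes, from 0.38 (SE 0.44) for Col1a1 to 0.76 (SE 0.66) for Timp1, and negative for Tgfb1 at -0.97 (SE 0.63) and Vim at -0.23 (SE 0.28). Adjusted p-values in edgeR lay between 0.770 and 0.847. The median over the 7 genes was 0.45, beside -0.02 over all genes tested, and the collagens and Fn1, all positive, varied together between libraries. This median was 0.17 without irradiated plus formula 2, 0.26 without control 2 and irradiated 4, and 0.03 under limma-voom with quality weights. The irradiated libraries enter both this comparison and the one with control, so the values of the 2 are not independent.

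Between irradiated plus formula and control libraries, which differ in both treatments, 0 of 7 genes had an unadjusted edgeR p below 0.05, against 5.71% of genes. DESeq2 and limma-voom again called 0 of 7. Of the 7 genes Timp1 had the highest fitted value, at 1.15 (SE 0.67, edgeR adjusted p = 0.877), and Tgfb1 the lowest, at -0.57 (SE 0.62, edgeR adjusted p = 0.905). The collagens were at 0.27 (SE 0.44) for Col1a1, 0.20 (SE 0.43) for Col1a2 and 0.32 (SE 0.45) for Col3a1, although their medians were lower in irradiated plus formula than in control libraries. Without control 2 and irradiated 4 these became 0.08, 0.01 and 0.13. In none of the 3 comparisons did the groups of any of the 7 genes separate without overlap, where 0.00603% of genes did so between irradiated and control, 0.187% between irradiated plus formula and irradiated, and 0.832% between irradiated plus formula and control.

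**Figure D2:**
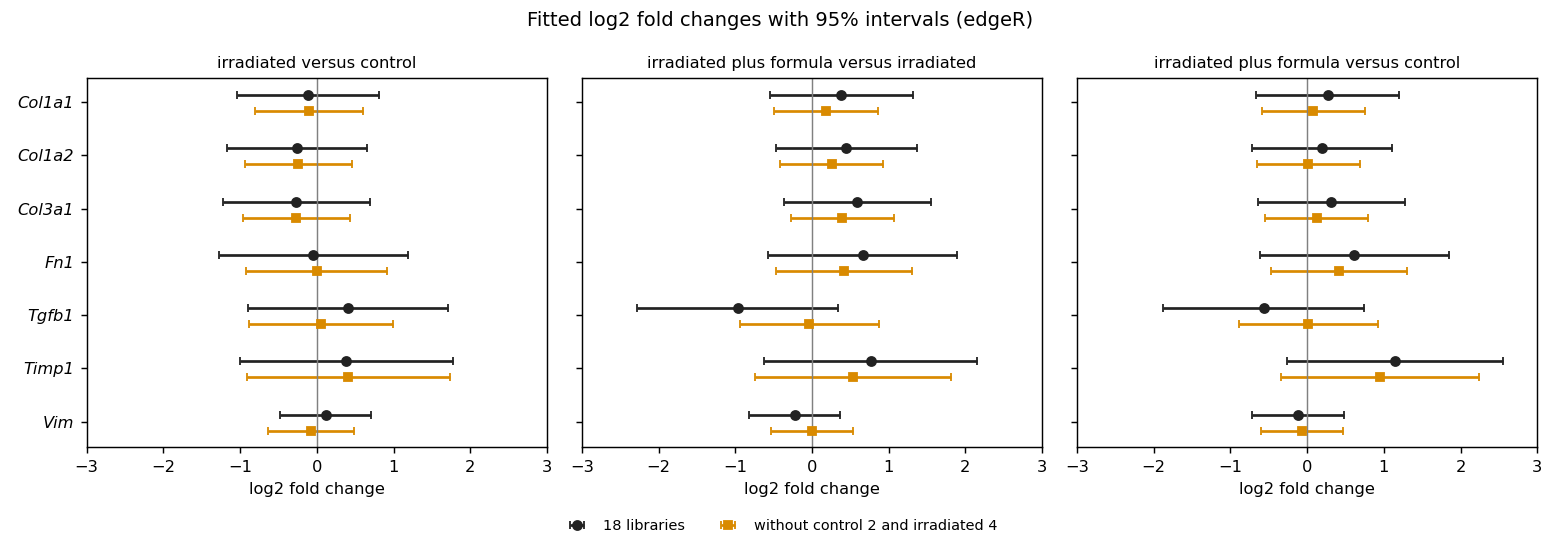
Fitted log2 fold change of each gene in the 3 comparisons, with its 95% interval from edgeR, from 18 libraries (black circles) and without control 2 and irradiated 4 (orange squares). Every interval includes 0, and the value of Tgfb1 between irradiated plus formula and irradiated is -0.97 with and -0.03 without these libraries.

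The intervals say how large a change could have gone unseen. With all 18 libraries they stayed within 2-fold in either direction for Vim in all 3 comparisons, reaching from 0.71-fold to 1.63-fold between irradiated and control. For Col1a1 the same comparison allowed from 0.48-fold to 1.76-fold, and for Col3a1 from 0.43-fold to 1.61-fold. Between irradiated plus formula and irradiated the lower limit of Vim passed 2-fold in 2 of 28 edgeR fits, at -1.02 on the log2 scale without irradiated plus formula 2 and at -1.05 with library totals alone. The interval was wide for Timp1, from 0.84-fold to 5.86-fold between irradiated plus formula and control. The intervals of the 7 genes had a median width of 1.91 log2 units between irradiated and control, against 1.48 over all genes tested.

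The within-group SD of log2 CPM was 1.24 for Timp1, 1.22 for Fn1, 1.06 for Tgfb1, 0.92 for Col3a1, 0.88 for Col1a1, 0.86 for Col1a2 and 0.50 for Vim. Among genes of similar level (within 1 log2 unit), 95.3% had a smaller SD than Timp1 and 90.2% a smaller SD than Fn1, while 63.1% had a smaller SD than Vim. That share was 88.4% for Tgfb1 and between 77.5% and 84.6% for the collagens. The ratio of the highest to the lowest of the 18 libraries was 44.4 for Timp1, 27.0 for Fn1, 13.4 for Tgfb1, between 10.1 and 12.7 for the collagens, and 3.34 for Vim. Without control 2 and irradiated 4 it was 24.8 for Timp1, 6.48 for Fn1, 4.39 for Tgfb1, between 3.18 and 4.06 for the collagens, and 2.74 for Vim. The within-group SD was then 1.05 for Timp1, 0.77 for Fn1, 0.72 for Tgfb1, between 0.57 and 0.58 for the collagens and 0.45 for Vim. Of genes of similar level, 97.1% then had a smaller SD than Timp1 and 93.9% a smaller SD than Fn1. That share was then between 85.8% and 86.3% for the collagens, 85.3% for Tgfb1 and 76.0% for Vim.

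Fn1 lay between 316 and 1158 CPM (median 408) in irradiated plus formula, between 67.4 and 721 (median 338) in irradiated and between 42.9 and 665 (median 454) in control libraries. Its ranges overlapped, and numbers 2 and 6 were the high libraries of the irradiated plus formula group, as they were for the collagens.

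Timp1 lay between 27.5 and 251 CPM (median 37.1) in irradiated plus formula, between 10.1 and 86.9 (median 42.8) in irradiated and between 5.64 and 57.1 (median 29.6) in control libraries. A single library, irradiated plus formula 2, was 7.25-fold above the median of the other 5 of its group. Without it the fitted log2 fold change was 0.17 against control (edgeR adjusted p = 0.954), beside 1.15 with it, and -0.21 against irradiated (edgeR adjusted p = 0.930), beside 0.76 with it. The same library was 2.14-fold above that median for Col1a1, 2.42-fold for Fn1 and 2.36-fold for Vim.

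Tgfb1 lay between 6.96 and 30.5 CPM (median 9.59) in irradiated plus formula, between 7.29 and 93.0 (median 12.8) in irradiated and between 11.9 and 52.9 (median 15.3) in control libraries. Its highest libraries were irradiated 4 and control 2, at 7.81-fold and 3.46-fold the median of the other 5 in their groups. Left out together, they brought the fitted log2 fold change between irradiated plus formula and irradiated to -0.03 (SE 0.42) and that between irradiated and control to 0.05 (SE 0.44). Vim lay between 93.2 and 255 CPM (median 124) in irradiated plus formula, between 110 and 311 (median 154) in irradiated and between 101 and 183 (median 167) in control libraries. Irradiated 4 held the 311 CPM, while control 2, at 165 CPM, was within the range of its group.

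Control 2 and irradiated 4 were both the lowest of their group for the collagens and Fn1. Control 2 had 6.82-fold less Col1a1, 8.08-fold less Col3a1, 12.2-fold less Fn1 and 5.42-fold less Timp1 than the median of the other control libraries. Irradiated 4 had 2.70-fold less Col1a1, 2.85-fold less Col3a1, 6.42-fold less Fn1 and 5.04-fold less Timp1 than the median of the other irradiated libraries. Irradiated 1 was lower still for Timp1 than irradiated 4. Tgfb1 was the highest of its group in both libraries, while Vim was 2.38-fold above the median of the other libraries in irradiated 4 and 0.98-fold that median in control 2. Mitochondrial genes took 9.30% of counts in control 2 and 5.77% in irradiated 4, and 12.8% to 39.7% in the other 16 libraries. The part of whatever sets this share in the values above was not tested.

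**Figure D3:**
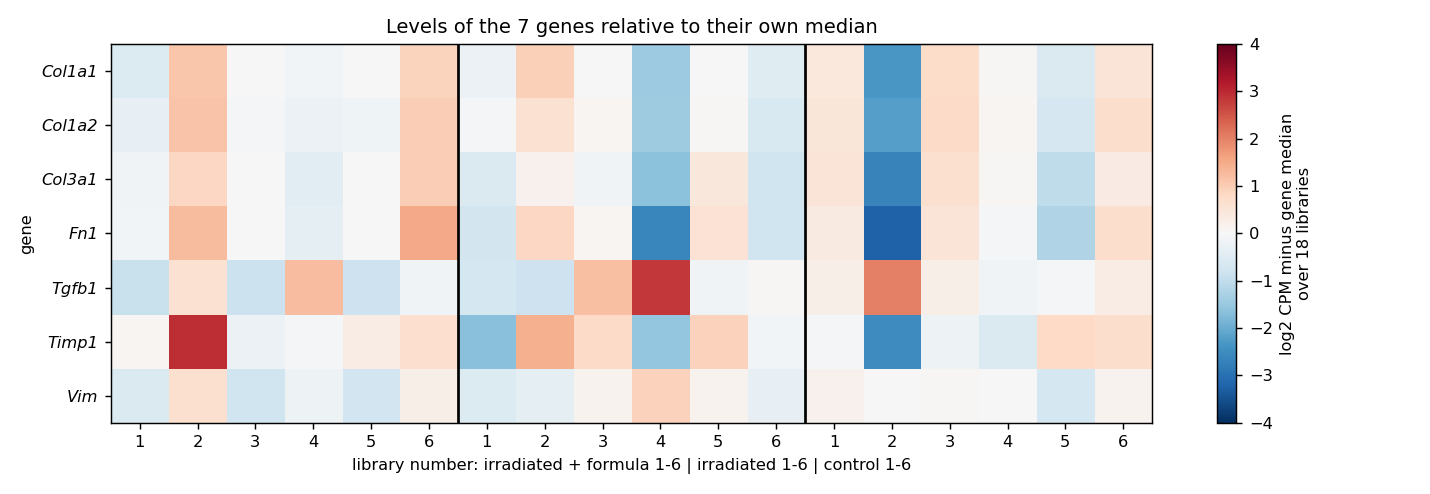
Log2 CPM of each gene minus its median over 18 libraries (color scale in log2 units), with irradiated plus formula libraries on the left, irradiated in the middle and control on the right. Irradiated 4 and control 2 are blue for the collagens, Fn1 and Timp1 and red for Tgfb1, and irradiated plus formula 2 and 6 are red for the collagens and Fn1.

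Across libraries the collagen genes and Fn1 varied together. Correlations were computed on deviations of log2 CPM from the group means, so that group differences did not enter, and p-values came from 100000 permutations within groups, adjusted over 21 pairs. Col1a1 and Col1a2 had r = 0.98 and rho = 0.97 (adjusted permutation p = 5.25e-05 for both, n = 18), and r was 0.96 without control 2 and irradiated 4, the libraries farthest from the median. Among 14318 other genes averaging 1 CPM or more over the 18 libraries, Col1a2 was the most highly correlated with Col1a1, and Col1a1 with Col1a2. Col3a1 and Fn1 had r = 0.98 and rho = 0.89, with r = 0.96 without the same libraries. Across the 21 pairs 13 passed the threshold on r. The share of other gene pairs that would pass was not computed, so whether this count is particular to the set is not known. The 6 pairs among the collagens and Fn1 had an r of at least 0.94, or of at least 0.84 without these libraries. An r of 0.9 or more was reached by 0.482% of the 14318 genes with Col1a1, 0.985% with Col1a2, 1.74% with Col3a1 and 1.39% with Fn1.

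Timp1 had, with the collagens and Fn1, an r between 0.68 (Col3a1) and 0.75 (Fn1) over 18 libraries and between 0.42 and 0.56 over 16, where none of these 4 pairs passed (adjusted permutation p between 0.0568 and 0.159). These 4 values changed much with 2 more libraries left out, those farthest from the median of the partner gene. Then r of Timp1 was 0.13 with Col1a1, 0.15 with Col1a2, 0.79 with Col3a1 and 0.91 with Fn1. Of the 14318 genes, 2.56% were correlated with Timp1 at least as highly as Fn1 over 18 libraries. Tgfb1 had a negative r with each of the collagens and Fn1, from -0.48 (Col1a2) to -0.55 (Fn1), and the pairs with Col3a1 and Fn1 passed (adjusted permutation p = 0.0433 for both). That relation rested on control 2 and irradiated 4: without them r lay between 0.08 and 0.17. On ranks it was also weak, with rho between -0.07 and -0.23. Over 18 libraries the r of Vim with the collagens and Fn1 was between 0.07 and 0.15, and over the 16 libraries it was between 0.66 and 0.75, with an adjusted permutation p between 0.0108 and 0.0277. Without 2 more libraries, those farthest from the median of the partner gene, r was 0.77 with Col1a1, 0.48 with Col1a2, 0.61 with Col3a1 and 0.62 with Fn1. The share of other genes this highly correlated with Vim over 16 libraries was not computed. Tgfb1 and Vim had r = 0.70 and rho = 0.71 over 18 libraries (adjusted permutation p = 0.0079 and 0.00686) and r = 0.63 over 16, which did not pass (adjusted permutation p = 0.0503). Such a value was common: 12.6% of the 14318 genes were correlated with Tgfb1 at least as highly as Vim, and 3.13% with Vim at least as highly as Tgfb1.

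**Figure D4:**
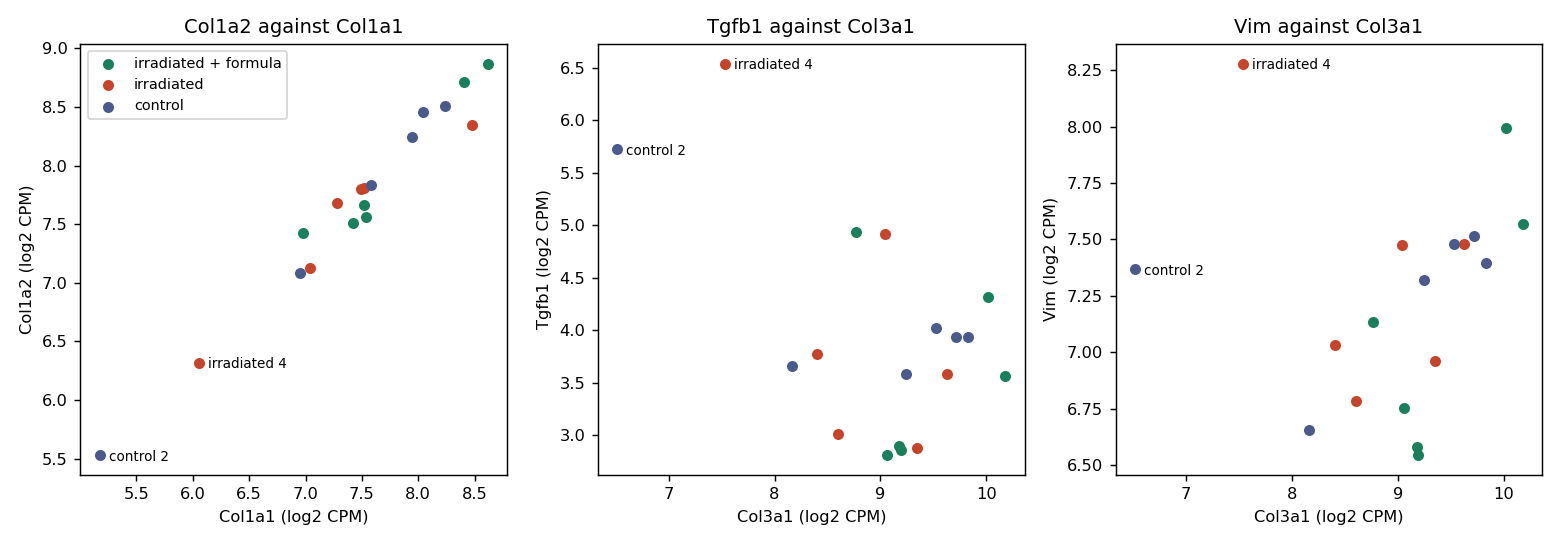
Col1a2 against Col1a1, Tgfb1 against Col3a1 and Vim against Col3a1, in log2 CPM, with 1 point per library colored by group. Col1a1 and Col1a2 lie along a line that includes control 2 and irradiated 4, while these libraries lie away from the others in both plots against Col3a1.

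The ratio of collagen transcripts within a library was compared next, since it does not depend on scaling. Per kilobase of exon, the Col1a1 count was 0.70 ± 0.07 times the Col1a2 count in irradiated plus formula, 0.70 ± 0.10 times in irradiated and 0.66 ± 0.04 times in control libraries (SD, n = 6). The Col3a1 count was 3.88 ± 0.74 times the Col1a1 count in irradiated plus formula, 3.44 ± 1.04 times in irradiated and 3.50 ± 0.50 times in control libraries (SD, n = 6). No difference passed a two-sided exact permutation test of the mean log2 ratio over all arrangements of 6 against 6 libraries (6 tests, adjusted p between 0.571 and 0.931, smallest p possible 0.0022). The largest of the 6 mean differences, 0.20 on the log2 scale for Col3a1 over Col1a1, was between irradiated plus formula and irradiated. In control 2, where both were several-fold lower than in its group, the ratios were 0.63 and 3.08, inside the range of the other libraries.

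**Figure D5:**
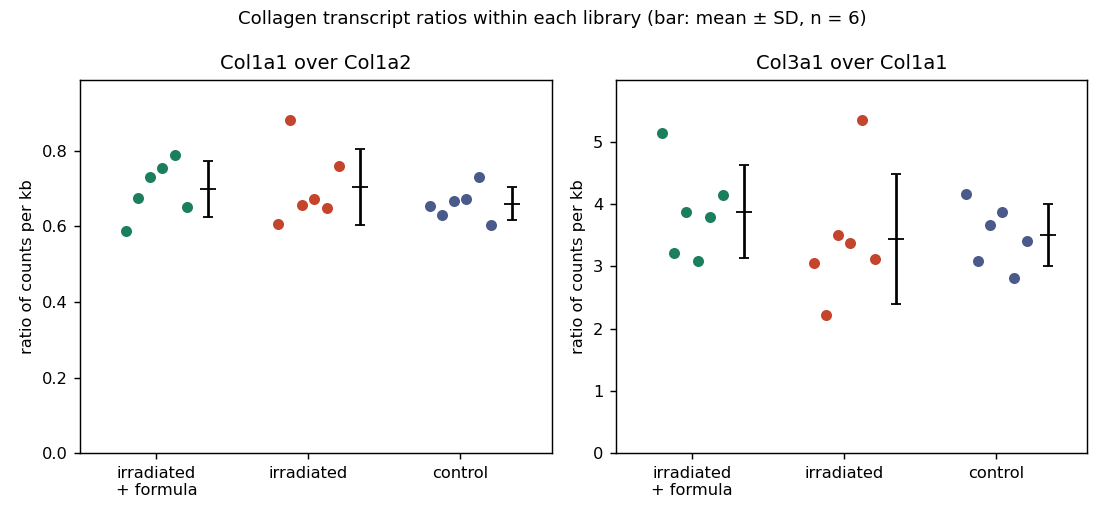
Ratio of counts per kilobase within each library for Col1a1 over Col1a2 and Col3a1 over Col1a1 (points are libraries, bars are mean ± SD of 6). Col1a1 over Col1a2 lies between 0.59 and 0.88 in all 18 libraries, and the groups overlap in both panels.

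The genes most like the collagens across the 18 libraries were then sought among 14312 genes outside the set, by the correlation of their deviations with the mean deviation of Col1a1, Col1a2 and Col3a1. ENSRNOG00000016281 (chr16:78183533-78294412, forward strand) had r = 0.98, and ENSRNOG00000023972 beside it (chr16:78047602-78183839, reverse strand) had r = 0.97. These neighbours share 286 exon bases on opposite strands, and reads there cannot be assigned to either. They averaged 348 and 205 CPM. ENSRNOG00000003172 (chr10:60249708-60262646, reverse strand) had r = 0.97 at 15.4 CPM. Without control 2 and irradiated 4 the 3 values were 0.97, 0.95 and 0.93. Most like Fn1 was ENSRNOG00000036816 on chromosome 2 (r = 0.98), most like Tgfb1 was ENSRNOG00000021062 on chromosome 1 (r = 0.98), most like Vim was ENSRNOG00000008376 on chromosome 4 (r = 0.96) and most like Timp1 was ENSRNOG00000015583 on chromosome 7 (r = 0.95). None of these 7 genes passed edgeR's test in any of the 3 comparisons. They were picked as the top of a long search, so their r values are descriptions. Such an r does not measure the size of the variation or the difference between groups. ENSRNOG00000015583 lay between 5.89 and 14.5 CPM, and its fitted log2 fold changes were negative in all 3 comparisons, where those of Timp1 were positive.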

How the data were processed

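The authors deposited raw counts, which featureCounts 2.1.1 produced according to the header (per the file headers, on mRatBN7.2 and Ensembl release 110). The submitters' processing notes also list fastp, FastQC, SAMtools and STAR, whose versions are not given in the sources used here. RNA was selected by poly(A) and primed with random hexamers, per the labels' protocols. Per the file headers no strand option and no option to count read pairs was set. Between 66.9% and 74.6% of counts from 1 to below 40 were even, so mates were largely counted separately and counting error exceeds what the counts imply. Exon length, another column of the deposited table, is in bases. No column of per-sample values was left unused.

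Counts were tested in R 4.3.3 with edgeR 4.0.16 (quasi-likelihood, filterByExpr, TMM) in a single model of 18 libraries, with Benjamini-Hochberg adjustment over all genes tested and a threshold of 0.05. SEs and intervals were derived from the F statistic and are approximate. TPM, CPM, ratios and correlations (log2 CPM, prior count 2) were computed from the deposited counts. DESeq2 1.42.0 and limma 3.58.1 served as alternatives, and the scripts were tested on simulated data. The gene table at hand matched 0 Ensembl IDs, so 19 lists of pathway genes and cell type markers were not used. The 7 genes and these lists were chosen with earlier results of these data known. Spreads without control 2 and irradiated 4 were added after seeing the data. Genes outside the 7 were named by the rule of highest correlation. Of 18 same-numbered pairs of libraries, 5 had a correlation over 0.1 (range -0.51 to 0.61). Pairs with different numbers were not compared, so this check cannot decide whether replicate numbers pair the libraries. No 2 libraries were alike within sampling error (lowest median chi-square 6.51 over 153 pairs, where sampling gives 0.455, or 0.910 if all mates were counted). Nothing states that each library is a separate animal, and p-values measure the spread between libraries.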

Additional observations from a re-analysis of the deposited data

Results flagged for a closer look

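Of 27 checks for a library far from its group (7 genes and 2 ratios in 3 groups), 5 were positive. Each check set the gap to the next library against the range of the group (Dixon's test). Genes were checked on CPM without logs. The nominal rate of 0.05 per check, about 1.35 in 27, holds for normally distributed values. CPM were not shown to be so, and the 5 cannot be compared with that number. The checks share libraries and genes, so they are not independent. Tgfb1 stood at 93.0 CPM in irradiated 4 and at 52.9 CPM in control 2, each far above the other 5 libraries of its group. Vim stood at 311 CPM in irradiated 4, also far above its group. In log2 CPM irradiated 4 was less far apart. It stood at 6.54 for Tgfb1, beside 2.88 to 4.92 in the other 5 irradiated libraries. For Vim it stood at 8.28, beside 6.78 to 7.48. The checks were not repeated on that scale. Vim in control 5 was far below the other control libraries, at 101 CPM. That library also had the lowest collagen and Fn1 levels of the control group after control 2, and the highest Timp1 level, 57.1 CPM. Timp1 stood at 251 CPM in irradiated plus formula 2, far above the other 5 libraries with the formula.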

How the results depend on the processing

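None of the 7 genes passed in any of 30 alternatives to any comparison (other scalings, filters and tools, fits of 12 libraries, a replicate block, and libraries left out singly or together), with adjusted p down to 0.120 for Vim under limma-voom with quality weights, between irradiated plus formula and control. Of 630 fitted values under alternatives 33 changed sign, all short of the threshold. Between irradiated and control, Fn1 gave 0.0062 with DESeq2's size factors and with DESeq2, 0.013 without the mitochondrial chromosome and with only 12 libraries, 0.072 with limma-voom and 0.15 without control 2, irradiated 1 and irradiated 4. Under quality weights Tgfb1 gave -0.018 and Vim -0.17, and Vim gave -0.074 without control 2 and irradiated 4, and -0.0016 with irradiated 1 also left out. With the replicate block Timp1 gave -0.080, and the block changed no call, ratios included. Between irradiated plus formula and irradiated, Timp1 gave -0.0095 under quality weights and Vim 0.0036 without control 2 and irradiated 4. Between irradiated plus formula and control, quality weights gave -0.43 for Col1a1, -0.48 for Col1a2, -0.26 for Col3a1 and -0.11 for Fn1. Tgfb1 gave 0.018 there without control 2 and irradiated 4, and 0.017 with irradiated 1 also left out. The cause was not tested. Over all genes tested, 2 passed between irradiated plus formula and control, against 47 in DESeq2, 499 with quality weights, 7 without control 2 and irradiated 4, 6 with 12 libraries, 1 with the block and 3 with library totals alone. DESeq2 also called 8 between irradiated plus formula and irradiated, where edgeR called 0.

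With each library left out in turn, some ranges held both signs. Between irradiated and control they ran from -0.44 to 0.055 for Col1a1, -0.32 to 0.18 for Fn1, -0.54 to 0.94 for Tgfb1 and -0.14 to 0.21 for Vim. They ran from -0.21 to 1.10 for Timp1 and -0.46 to 0.026 for Vim between irradiated plus formula and irradiated, and from -0.029 to 0.36 for Col1a2 between irradiated plus formula and control. The others kept their sign but were wide. Between irradiated and control they ran from -0.47 to -0.090 for Col1a2, -0.49 to -0.096 for Col3a1 and 0.046 to 0.67 for Timp1. Between irradiated plus formula and irradiated they ran from 0.17 to 0.70 for Col1a1, 0.23 to 0.64 for Col1a2, 0.40 to 0.75 for Col3a1, 0.37 to 0.94 for Fn1 and -1.36 to -0.026 for Tgfb1. Between irradiated plus formula and control they ran from 0.049 to 0.44 for Col1a1, 0.093 to 0.49 for Col3a1, 0.33 to 0.82 for Fn1, -0.96 to -0.029 for Tgfb1, 0.17 to 1.40 for Timp1 and -0.34 to -0.013 for Vim. The group difference in mean log2 ratio of Col1a1 to Col1a2 ranged from -0.050 to 0.059 between irradiated plus formula and irradiated. The difference for Col3a1 to Col1a1 ranged from -0.20 to 0.053 between irradiated and control.

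Of 21 correlations 13 passed with all libraries, 10 without control 2 and irradiated 4 and 11 with library totals alone. How many other gene pairs would pass was not computed. Without control 2 and irradiated 4, also the libraries farthest from the median for these pairs, r of Tgfb1 turned to 0.14 with Col1a1, 0.17 with Col1a2, 0.078 with Col3a1, 0.11 with Fn1 and 0.31 with Timp1. With library totals alone r of Vim was -0.0026 with Col1a1, -0.0028 with Col3a1 and -0.093 with Fn1. With TMM scaling, r of Timp1 and Vim was -0.16 without irradiated plus formula 2 and control 2, the 2 libraries farthest from the median for that pair.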

Other observations

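The 7 genes together took between 0.139% and 0.303% of all counts in irradiated plus formula libraries, between 0.0921% and 0.264% in irradiated libraries and between 0.0523% and 0.225% in control libraries. Timp1 was low in irradiated 1, at 10.1 CPM, beside 11.02 CPM in irradiated 4. Unlike irradiated 4, irradiated 1 had collagen levels inside the range of its group (155 CPM for Col1a1) and Tgfb1 at 7.99 CPM. Irradiated 2 had the highest ratio of Col1a1 to Col1a2 of all 18 libraries, 0.882, and the lowest of Col3a1 to Col1a1, 2.22. It also had the highest Col1a1 and Timp1 levels among irradiated libraries, 357 and 86.9 CPM.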
